A study of Mus musculus with 14 samples.

Results

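The lysosome and cathepsin genes described here are 43 mouse genes chosen by name, with earlier results of these data known, as 8 cathepsins, 17 other acid hydrolases, 3 soluble partners of these enzymes (Psap, Npc2 and Grn), 7 membrane proteins, 4 proton pump genes, 3 transcription factors of the TFEB type and the autophagy receptor Sqstm1. All 43 were found among the 50686 genes in the files by gene identifier, and all 43 passed the filter on low counts. Lysosomes are acidic compartments in which cathepsins cut proteins and other hydrolases degrade glycans, lipids and sulfated sugars. A proton pump in the limiting membrane keeps the lumen acidic. TFEB, TFE3 and MITF are related transcription factors that switch on many lysosome genes, and the kinase mTORC1 holds them in the cytoplasm when nutrients are plentiful. In blood cells, macrophages are known for their large lysosomal compartment.

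RNA was sequenced from 14 cultures of HPC-LSK cells, mouse haematopoietic stem and progenitor lines named for the lineage-negative, Sca-1-positive, Kit-positive cells of bone marrow, on a C57BL/6N background. The 4 groups were Cdk6 knockout (KO) untransformed cells with 3 libraries, Cdk6 wild-type (WT) untransformed cells with 4, KO cells transformed with the BCR-ABL p210 oncogene with 4, and WT cells with p210 with 3. Per the growth protocol, untransformed cells were grown in IMDM on agarose with 12.5 ng/ml IL-6 and 2% SCF, while p210 cells received neither. Every p210 sample nevertheless carries in its description the letters SCF, so whether these cells had SCF is not settled by the labels. Transformation and any difference in medium cannot be told apart. The labels state neither the Cdk6 allele, nor how p210 was introduced, nor whether replicates of a group came from separate animals, so the p-values measure only the spread between these samples. The sample descriptions carry 1 of 2 codes and a letter, which together were read as naming a line within a genotype. By that reading 6 lines appear both untransformed and with p210. Questions addressed were how lysosome transcripts differ between KO and WT cells in each state, and between p210 and untransformed cells of each genotype.

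The libraries had total counts of 20270348 to 50303271, between 18105 and 20689 genes with a count, and a mitochondrial share of 1.48% to 2.13%. Levels below are CPM, that is counts relative to the TMM-scaled size of the library, unless TPM (which also divides by gene length) is named, and a gene counts as higher or lower where the quasi-likelihood F-test of edgeR gave a Benjamini-Hochberg adjusted p under 0.05 over the 14512 genes tested. Cdk6 (chromosome 5, 3341485 to 3531008, GRCm38) had 271, 258 and 236 CPM in KO untransformed libraries, against 970.2, 999, 1213 and 1305 CPM in WT untransformed libraries. With p210 it had 326, 578, 245 and 163 CPM in KO libraries and 576, 606 and 597 CPM in WT libraries. The library labelled KO p210 replicate 2 therefore lay within the WT range, against its label. Of the markers that name the cells, Kit averaged 259 CPM in KO and 431 CPM in WT untransformed libraries but 31.4 CPM in KO and 45.5 CPM in WT libraries with p210, and Ly6a, which encodes Sca-1, averaged 31.8 CPM in KO and 51.7 CPM in WT untransformed libraries but 10.9 CPM in KO and 12.7 CPM in WT libraries with p210. Of 14 lymphoid genes examined, Cd3e, Cd8a and Ms4a1 were among those without a count in the 14 libraries, while others had counts. The B cell gene Cd79b averaged 10.4 CPM in KO and 7.69 CPM in WT untransformed libraries. The T cell gene Trac averaged at most 3.88 CPM, in WT p210 libraries. Il7r averaged up to 26.2 CPM, in KO untransformed libraries, and Nkg7 up to 90.5 CPM, in KO p210 libraries.

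TFEB-type factors are known to bind the E-box CACGTG, above all where it stands in the longer element TCACGTGA. RefSeq promoter windows (GRCm38.p6, 250 bases before to 50 after a gene's start) were matched for 38 of the 43 genes. CACGTG, read on both strands, stood in a window of 13 of these 38 genes (34.21%), against 8.09% of the 27025 genes with a window. TCACGTGA, which holds CACGTG, stood in windows of 6 of the 38 (15.79%), against 1.12% of all genes. The stretches around the motif are shown for those 6 genes and for Lamp1, which had 4 copies of CACGTG but no TCACGTGA. They show how CACGTG recurs in cathepsins, a hydrolase, membrane proteins and the pump. Each is given 5′ to 3′ on the gene's strand, and capitals mark CACGTG or TCACGTGA.
Ctsa, chr2:164833741-164833797, plus strand: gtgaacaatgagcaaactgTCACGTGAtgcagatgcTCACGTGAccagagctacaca
Ctsd, chr7:142387900-142388077, minus strand: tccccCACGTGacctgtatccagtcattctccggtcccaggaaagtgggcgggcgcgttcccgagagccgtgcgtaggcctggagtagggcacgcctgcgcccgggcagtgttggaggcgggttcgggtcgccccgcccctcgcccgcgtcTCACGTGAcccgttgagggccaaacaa
Gla, chrX:134601174-134601252, minus strand: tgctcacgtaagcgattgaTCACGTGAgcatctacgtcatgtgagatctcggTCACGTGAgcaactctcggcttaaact
Lamp1, chr8:13159080-13159171, plus strand: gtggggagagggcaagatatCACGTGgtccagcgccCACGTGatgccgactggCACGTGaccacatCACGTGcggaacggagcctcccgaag
Mcoln1, chr8:3500428-3500499, plus strand: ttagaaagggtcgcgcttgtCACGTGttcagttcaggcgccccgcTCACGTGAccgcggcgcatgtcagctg
Atp6v0d1, chr8:105566042-105566087, minus strand: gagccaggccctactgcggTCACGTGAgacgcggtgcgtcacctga
Atp6v1a, chr16:44139365-44139410, minus strand: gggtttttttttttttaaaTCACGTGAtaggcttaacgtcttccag
The Ctsa stretch belongs to the second of its 2 windows, which lies inside the gene as the files annotate it. The Atp6v1a stretch also lies inside its annotated gene, as does the TCACGTGA of Ctsd and of Mcoln1. The related motif TCATGTGA, read on both strands, stood in windows of 5 of the 38 genes (13.16%: Ctss, Gla, Grn, Ppt1 and Tpp1), against 1.15% of all genes. A match is a description of the letters and not evidence of binding.

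Per transcript length, Psap was the most abundant of the 43 genes in KO untransformed cells. It averaged 4791 TPM there and 1345 TPM in WT untransformed cells, and 2389.9 TPM in KO and 2100.5 TPM in WT cells with p210. Psap encodes prosaposin, the precursor of the saposins that present lipids to hydrolases. Together the 43 genes made up 1.70% to 2.52% of all TPM in KO untransformed libraries, against 0.70% to 1.25% in WT untransformed libraries. With p210 their share was 1.39% to 2.22% in KO libraries and 1.31% to 2.07% in WT libraries. The WT untransformed libraries lay below all 10 other libraries, which overlapped among themselves. In bulk RNA, a change in the number of cells of a type and a change in RNA per cell cannot be told apart.

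**Figure D1:**
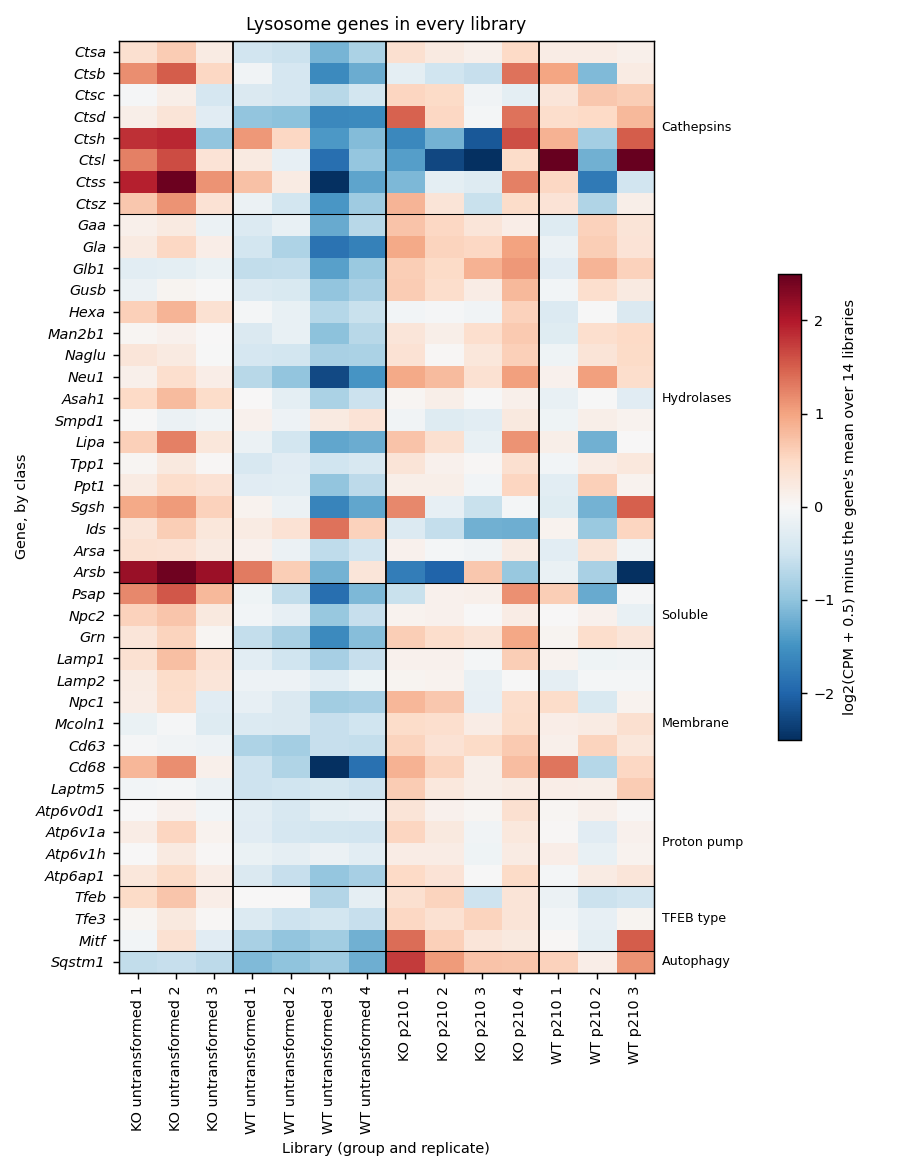
Level of each of the 43 genes (rows, by class) in each of the 14 libraries (columns, by group), as log2(CPM + 0.5) minus the gene's mean over the libraries. The 4 WT untransformed columns are blue for most genes, darkest in replicates 3 and 4. Rows that do not follow include Ids, Smpd1 and Arsb, and Ctsh and Ctss lie above their mean in replicates 1 and 2.

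Before transformation, 23 of the 43 lysosome genes were higher in KO than in WT cells and none was lower by edgeR. Among all genes tested 8.73% were higher and 6.5% lower, 15.2% in all. The higher genes came from every class but the autophagy receptor, with 3 of 8 cathepsins, 9 of 17 other hydrolases, 3 of 3 soluble partners, 4 of 7 membrane proteins, 3 of 4 pump genes and 1 of 3 TFEB-type factors. The median log2 fold change was 0.86 over the 43 genes and -0.02 over all genes tested. In 38 of the 43 genes every KO library lay above every WT library, and in none below, where 20.8% and 18.9% of all genes did so. At an unadjusted p under 0.05 stood 37 of the 43 (86.0%, against 32.5% of all genes tested), all with higher levels in KO cells, and DESeq2 called 30 higher and 0 lower.

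Among the cathepsins, Ctsa, Ctsd and Ctsz were higher. Ctsa, cathepsin A, which also protects other hydrolases from breakdown, had 506, 593 and 437 CPM in KO libraries, against 275, 262, 169 and 221 CPM in WT libraries. The groups did not overlap (log2 fold change 1.14 ± 0.16, SE, adjusted p = 0.0037). Ctsd, the main aspartic protease of lysosomes, had 1455, 1661 and 1081 CPM in KO libraries, against 663, 650.4, 435 and 437 CPM in WT libraries (log2 fold change 1.36 ± 0.32, adjusted p = 0.020). Ctsz, a cysteine carboxypeptidase, had 327, 445 and 265 CPM in KO libraries and 185, 149, 74.5 and 111 CPM in WT libraries (1.41 ± 0.37, adjusted p = 0.028). In all 3 genes KO replicate 2 was highest and WT replicate 3 lowest. Ctsb and Ctss, the cysteine proteases best known from macrophages and antigen-presenting cells, had larger standard errors. Ctsb had 2575, 3313 and 1640.4 CPM in KO libraries, against 1083, 863, 382 and 491 CPM in WT libraries, without overlap, yet its log2 fold change of 1.83 ± 0.58 did not pass the threshold (adjusted p = 0.054). Ctss had 751, 1080.3 and 426 CPM in KO libraries, against 325, 227, 24.4 and 78.2 CPM in WT libraries (2.20 ± 0.82, adjusted p = 0.086). Both passed it in DESeq2, with adjusted p = 0.0073 for Ctsb and 0.030 for Ctss.

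Of the other hydrolases, Asah1, Hexa and Naglu had the smallest adjusted p. Asah1, acid ceramidase, had 308, 377 and 300.4 CPM in KO libraries, against 219.9, 186, 126 and 152 CPM in WT libraries (log2 fold change 0.94 ± 0.16, adjusted p = 0.0066). Hexa, the alpha subunit of the hexosaminidase that is lost in Tay-Sachs disease, had 442, 524 and 382 CPM in KO libraries, against 279.7, 256, 178 and 198 CPM in WT libraries (0.98 ± 0.20, adjusted p = 0.012). Naglu, which acts on heparan sulfate, had 76.1, 72.5 and 61.1 CPM in KO libraries, against 46.2, 44.5, 35.0 and 35.2 CPM in WT libraries (0.80 ± 0.17, adjusted p = 0.012). None of the 3 genes overlapped between groups, and WT replicates 3 and 4 were the lowest in each. The other higher hydrolases were the sialidase Neu1 (1.5), the acid lipase Lipa (1.47), the alpha-galactosidase Gla (1.40), the palmitoyl thioesterase Ppt1 (0.86), the arylsulfatase Arsa (0.59) and the tripeptidyl peptidase Tpp1 (0.51), given as log2 fold changes. Smpd1, acid sphingomyelinase, and Ids, iduronate sulfatase, were the only members with a negative fold change, at -0.23 ± 0.14 and -0.30 ± 0.37, and did not pass the threshold.

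All 3 soluble partners were higher in KO untransformed cells. Grn, which encodes progranulin, had 739, 879 and 622 CPM in KO libraries, against 395, 339, 198 and 287 CPM in WT libraries (log2 fold change 1.29 ± 0.22, adjusted p = 0.0070). Npc2, the soluble cholesterol carrier, had 629.6, 681 and 499 CPM in KO libraries, against 401, 366, 218 and 283 CPM in WT libraries (0.93 ± 0.18, adjusted p = 0.0093). Psap had 3988, 5059 and 3027 CPM in KO libraries, against 1600.0, 1134, 465 and 789.7 CPM in WT libraries (2.01 ± 0.51, adjusted p = 0.024). KO replicate 2 was again the highest and WT replicate 3 the lowest library of each gene.

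Among membrane proteins, Lamp1, Lamp2, Cd63 and Cd68 were higher. Lamp1, a major glycoprotein of the lysosomal membrane, had 875, 1132 and 866 CPM in KO libraries, against 556, 475, 378 and 448 CPM in WT libraries (log2 fold change 1.05 ± 0.17, adjusted p = 0.0057). Cd63, a tetraspanin of late endosomes, had 349, 335 and 324 CPM in KO libraries, against 208, 197, 236 and 234 CPM in WT libraries (0.62 ± 0.11, adjusted p = 0.0070). Lamp2, a relative of Lamp1 that also serves chaperone-mediated autophagy, had 581, 687 and 621 CPM in KO libraries, against 459.8, 461, 419 and 466 CPM in WT libraries (0.48 ± 0.08, adjusted p = 0.0074). The 3 genes did not overlap between groups. Cd68, a macrophage lysosome glycoprotein, had a log2 fold change of 1.98 ± 0.52 (adjusted p = 0.027). The calcium channel gene Mcoln1 (0.27), the cholesterol exporter Npc1 (0.69) and Laptm5 (0.41), a membrane protein of blood cells, did not pass the threshold.

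Of the proton pump genes 3 of 4 were higher. Atp6ap1, an accessory subunit, had 354, 406 and 333 CPM in KO libraries, against 229, 195, 150.1 and 165 CPM in WT libraries (log2 fold change 0.98 ± 0.16, adjusted p = 0.0057). Atp6v1a, the catalytic subunit, had 358, 456 and 333 CPM in KO libraries, against 257, 235, 227 and 225 CPM in WT libraries (0.70 ± 0.15, adjusted p = 0.012). Atp6v0d1, of the membrane sector, had 162, 175 and 155 CPM in KO libraries, against 135, 122, 137 and 141 CPM in WT libraries (0.30 ± 0.09, adjusted p = 0.040). All 3 were without overlap between groups. Among the factors, Tfe3 (chromosome X, 7762560 to 7775202, plus strand, GRCm38) had 65.9, 75.8 and 65.3 CPM in KO libraries, against 50.5, 44.7, 46.1 and 42.7 CPM in WT libraries (0.59 ± 0.09, adjusted p = 0.0055). Tfeb (0.69 ± 0.25) and Mitf (1.02 ± 0.40) lay above the WT libraries in every KO library but did not pass the threshold, with adjusted p of 0.084 and 0.10.

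**Figure D2:**
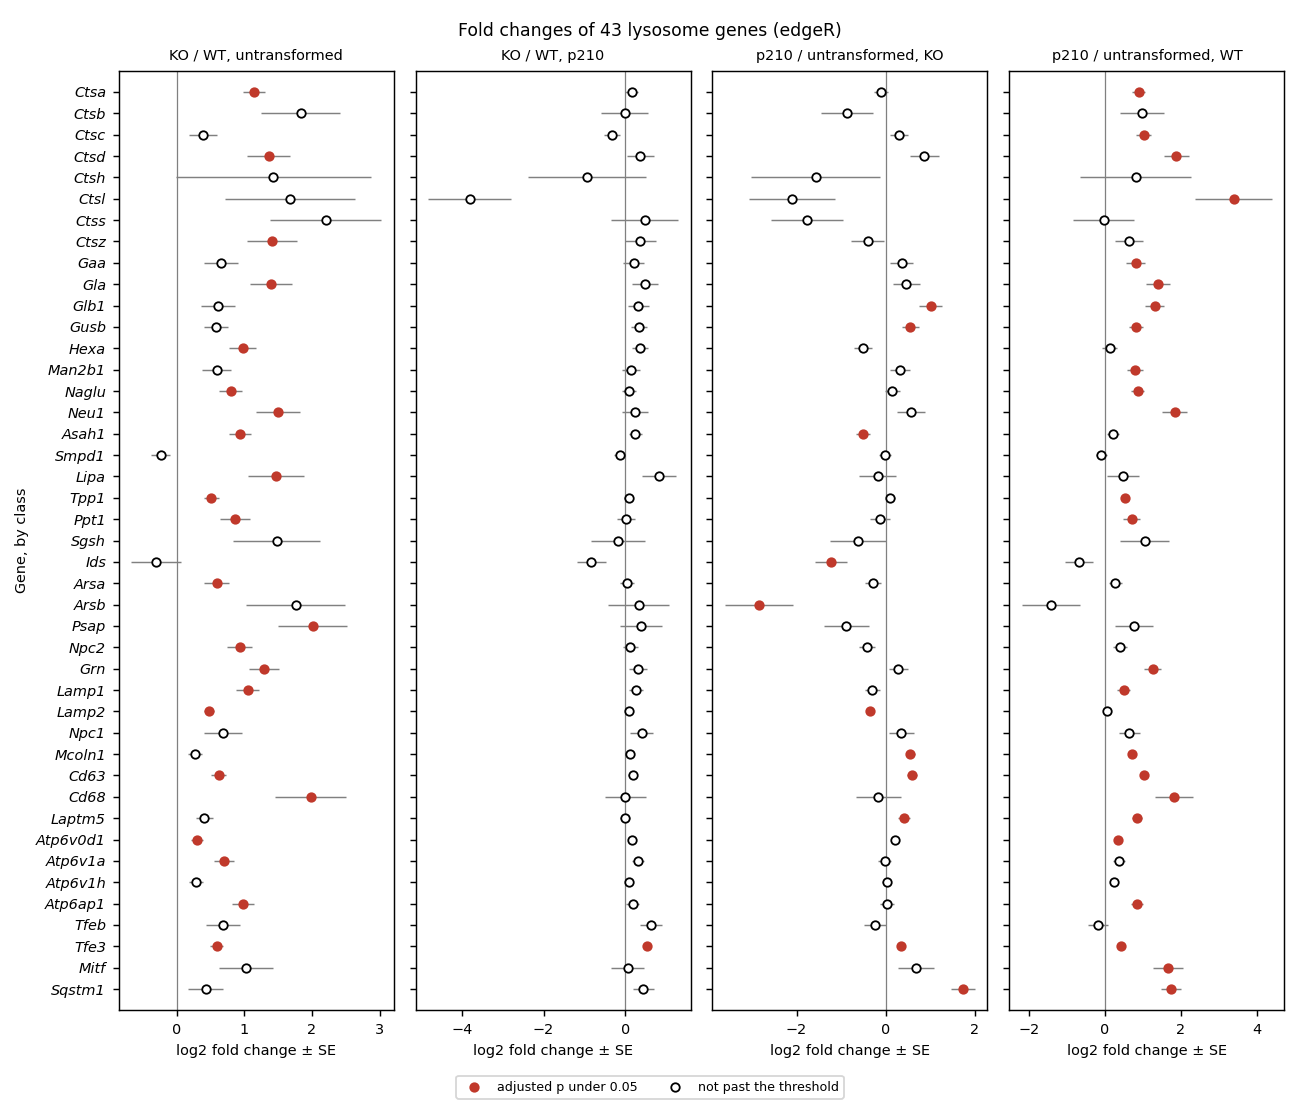
Log2 fold change with its standard error for each of the 43 genes (rows, by class) in 4 comparisons (panels), from edgeR. Filled points passed an adjusted p of 0.05. The first panel, KO over WT before transformation, holds 23 filled points to the right of 0, the panel of KO over WT with p210 holds 1, and the panels of p210 over untransformed cells hold 11 in KO and 24 in WT.

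Leaving out single libraries moved the number of genes called before transformation. Only 6 were called without KO replicate 2, 14 without KO replicate 1 and 15 without WT replicate 3 or without WT replicate 4. Counts over all genes in these fits are not given here. Whether the falls are particular to lysosome genes is therefore not shown. Ctsa, Asah1, Grn, Lamp1, Atp6ap1 and Tfe3 were called whichever of the 14 libraries was left out. Within the first code, with 2 KO and 2 WT libraries, 42 of 43 genes were higher in KO cells by sign and 7 passed the threshold. Within the second code, with 1 KO and 2 WT libraries, 41 of 43 were higher by sign, none passed the threshold by edgeR and 26 had an unadjusted p under 0.05.

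**Figure D3:**
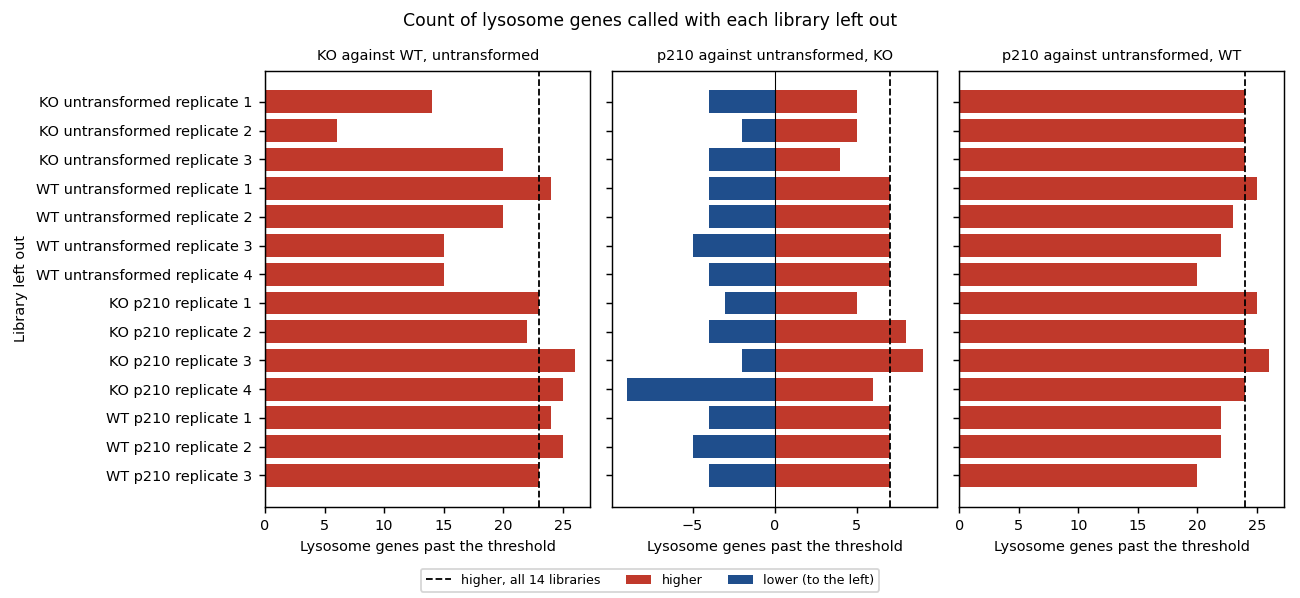
Number of the 43 genes past the threshold (horizontal axis, higher to the right and lower to the left) when each library (rows) was left out, in 3 comparisons. The dashed line marks the number higher with all 14 libraries. The first panel falls to 6 without KO untransformed replicate 2, while the third stays between 20 and 26.

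Sums of myeloid markers were also higher in the KO group. The summed level of 15 monocyte and macrophage markers was 8917 to 14027 CPM in KO untransformed libraries, against 333 to 3051 CPM in WT untransformed libraries. Of the 13 tested, 4 were higher in KO cells (Lyz2, Adgre1, Ccr2 and Itgam) and none was lower. All 13 had positive fold changes, with a median of 1.79 on the log2 scale. Lyz2, the lysozyme gene, made up most of the sum, averaging 9015 CPM in KO and 1192 CPM in WT libraries. Csf1r, the receptor for the macrophage growth factor M-CSF, averaged 559.9 CPM in KO and 100.4 CPM in WT libraries, and the complement gene C1qb 24.9 CPM in KO and 7.23 CPM in WT libraries. The macrophage genes Marco and Vsig4 had no counts in KO untransformed libraries. Neutrophil granule markers summed to 16045 to 20618 CPM in KO libraries and 353 to 8507 CPM in WT libraries, although none of the 14 tested passed the threshold by edgeR and 3 had an unadjusted p under 0.05. Mpo, the myeloperoxidase gene, which is active in granulocyte and monocyte progenitors, made up most of this sum, averaging 13005 CPM in KO and 2605 CPM in WT libraries. Genes of later neutrophil stages varied. Ltf averaged 23.8 CPM in KO and 18.8 CPM in WT libraries, and Camp 1.16 CPM in KO and 1.08 CPM in WT libraries. Mmp8 averaged 327 CPM in KO and 37.0 CPM in WT libraries, and Lcn2 237 CPM in KO and 109 CPM in WT libraries. S100a9 averaged 293 CPM in KO and 101 CPM in WT libraries. Ly6g had no counts in either group. Markers of erythroid cells and megakaryocytes summed to 994 to 1611 CPM in KO libraries and 2240.2 to 6041 CPM in WT libraries. Markers of mast cells and basophils summed to 2974 to 3319 CPM in KO libraries and 1638 to 7828 CPM in WT libraries. WT replicate 3, the library with the smallest lysosome share, had the highest mast cell sum and 47130 of the 48156 counts of the mast cell protease Mcpt4 in its group. Without it 15 lysosome genes were called, as given above. Within each of the groups, the library with the largest share of lysosome TPM before transformation, KO replicate 2 or WT replicate 1, also had the largest monocyte and neutrophil sums. The part of these cells in the lysosome result was not tested.

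**Figure D4:**
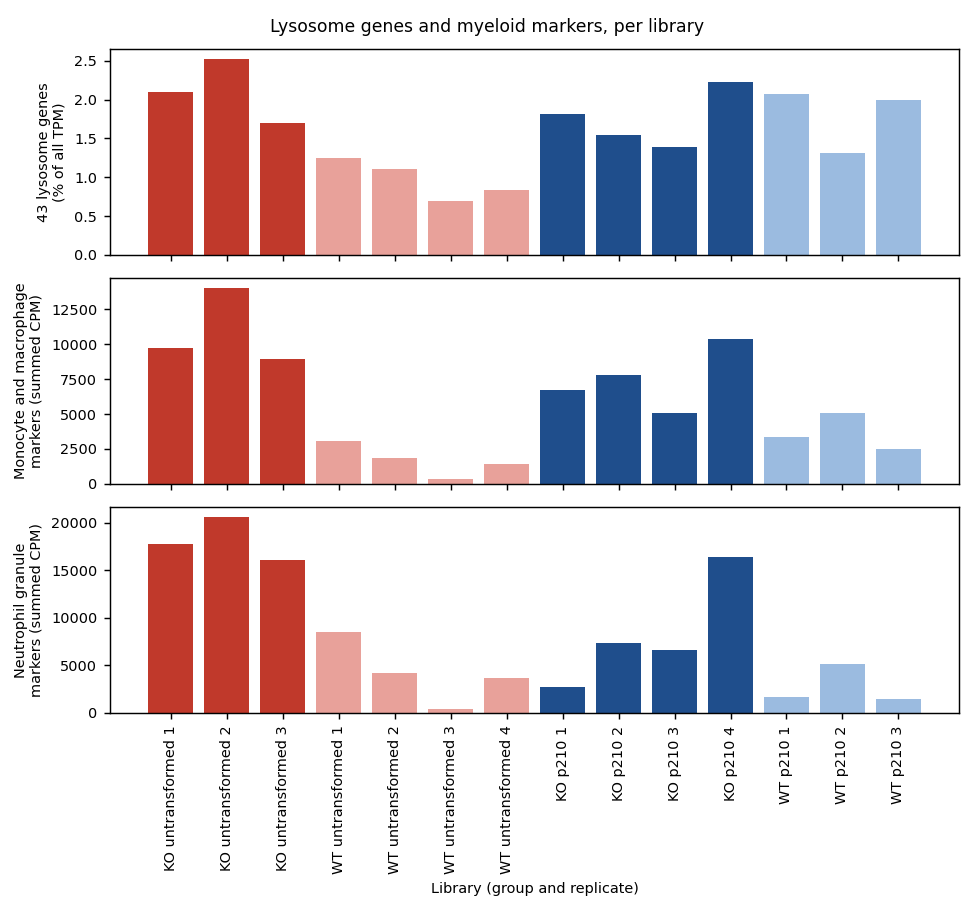
Share of all TPM taken by the 43 lysosome genes (top), summed CPM of the monocyte and macrophage markers (middle) and of the neutrophil granule markers (bottom) in each library (horizontal axis, by group). Before transformation the 3 KO libraries stand above the 4 WT libraries in all 3 panels. With p210, WT replicates 1 and 3 combine a lysosome share of 2.07% and 1.99% with neutrophil sums of 1695 and 1424 CPM.

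Other lysosomal genes were also higher in KO cells before transformation. Of 146 other genes of the lysosome and autophagy pathways that were tested, 52 (35.6%) were higher and 4 lower in KO untransformed cells relative to WT, where 8.73% of all genes were higher and 6.5% lower. Their median log2 fold change was 0.37, against -0.02 over all genes. The list of other hydrolases, which also holds the sulfatase-modifying factor Sumf1, had 14 of 28 higher. Among these were Sumf1 (0.90 ± 0.15) and Hyal2 (0.67 ± 0.11). Other pump genes had 10 of 16 higher and 1 lower, with Atp6v1b2 at 1.04 ± 0.18, Atp6v0b at 0.69 ± 0.13 and Tcirg1 at 1.57 ± 0.31. Other membrane proteins had 10 of 25 higher, with the nucleoside transporter Slc29a3 at 1.05 ± 0.17 and the cystine transporter Ctns at 1.04 ± 0.19. Autophagy genes had 5 of 20 higher and 1 lower, with Atg7 at 0.67 ± 0.11, and mTORC1 regulators and other factors 5 of 24 higher and 2 lower, with Fnip2 at 0.95 ± 0.17. Sorting genes had 6 of 20 higher, and of 13 other cathepsins and cathepsin inhibitors the inhibitors Cstb (1.26 ± 0.21) and Cst3 (0.62 ± 0.13) were higher.

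With p210, 1 of the 43 lysosome genes passed the threshold between the genotypes. Tfe3 alone was higher in KO p210 than in WT p210 cells, and none of the 43 was lower by edgeR, where 0.882% of all genes were higher and 3.56% lower, 4.44% in all. Tfe3 had 92.2, 83.1, 94.1 and 79.7 CPM in KO p210 libraries, against 60.7, 55.5 and 66.9 CPM in WT p210 libraries. The groups did not overlap (log2 fold change 0.52 ± 0.09, adjusted p = 0.010). When the library labelled KO p210 replicate 2 was left out, the adjusted p was 0.024. A fit of the p210 libraries alone gave it a log2 fold change of 0.51 with an adjusted p of 0.10, and no gene of the 43 was then called. Within the first code its log2 fold change was 0.59 (adjusted p = 0.043), with Tfeb also called at 0.83 (adjusted p = 0.046), and within the second, with 1 WT p210 library, it was 0.37 (adjusted p = 0.39). At an unadjusted p under 0.05 stood 4 of the 43 genes (9.3%), against 19.9% of all genes. The fold change was positive in 34 of the 43 (79.1%), against 49.7% of all genes, with a median of 0.18 on the log2 scale. Cdk6 itself did not pass the threshold in this comparison (-0.86, adjusted p = 0.15), but did so when the library labelled KO p210 replicate 2 was left out (-1.28, adjusted p = 0.014). Only 2 of the 43 genes had every KO p210 library above every WT p210 library, and none had every one below, where 5.64% and 7.7% of all genes did so. Of the 146 other pathway genes 3 were higher (Slc29a3 at 0.78, Gga1 at 0.36 and M6pr at 0.26) and 2 lower, the phosphatase gene Acp5 at -5.08 and the GTPase gene Rragb at -1.06.

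Ctsl, cathepsin L, had the widest spread with p210. It had 50.5, 26.8, 17.7 and 182 CPM in KO p210 libraries, against 1189, 57.0 and 1668 CPM in WT p210 libraries. WT replicates 1 and 3 stood far above the other 5, while WT replicate 2 lay within the KO range. The log2 fold change of -3.81 ± 1.02 did not pass the threshold (adjusted p = 0.058), but did so without WT p210 replicate 2 (-4.36, adjusted p = 0.016), without KO p210 replicate 4 (-4.94, adjusted p = 0.028), with total count scaling (-3.93, adjusted p = 0.045) and in DESeq2 (-3.81, adjusted p = 0.0022). Before transformation Ctsl had 314, 411 and 168 CPM in KO libraries and 155, 115, 35.4 and 67.4 CPM in WT libraries, a fold change in the opposite direction (1.68 ± 0.96, adjusted p = 0.25). The difference between these 2 fold changes was -5.48 ± 1.40 (adjusted p = 0.17 by edgeR and 0.0068 by DESeq2).

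**Figure D5:**
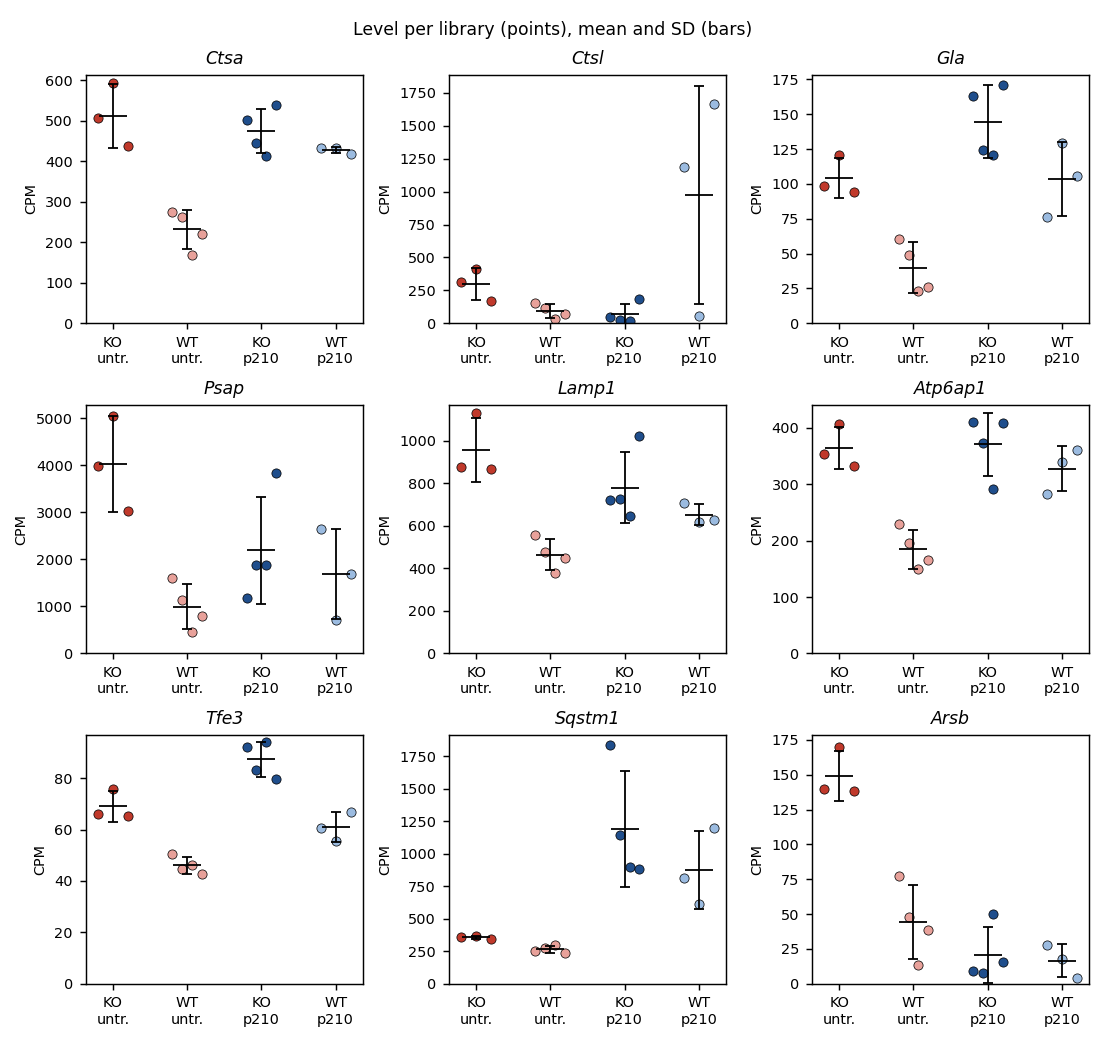
CPM of 9 genes in each library (points) with the group mean and SD (bars), by group from left to right as KO untransformed, WT untransformed, KO p210 and WT p210. The WT untransformed group is lowest for Ctsa, Gla, Psap, Lamp1 and Atp6ap1, Sqstm1 is highest in both p210 groups, and Ctsl is high in 2 of the 3 WT p210 libraries.

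In WT cells, p210 went with higher levels of 24 of the 43 genes and lower levels of none by edgeR, where 21.9% of all genes were higher and 17.6% lower, 39.5% in all. The median log2 fold change was 0.76 over the 43 genes and 0.02 over all genes. In 20 of the 43 genes every WT p210 library lay above every WT untransformed library, and in none below, where 23.5% and 21.6% of all genes did so. At an unadjusted p under 0.05 stood 28 of the 43 (65.1%, against 48.6% of all genes tested), all with higher levels with p210, and DESeq2 called the same 24 genes. The comparison shares its WT untransformed libraries with that of KO against WT cells before transformation, so the 2 sets of values are not independent. WT untransformed replicates 3 and 4, the libraries of that group with the second code, were low in both.

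The smallest adjusted p in WT cells belonged to Cd63, Mcoln1 and Sqstm1. Sqstm1, which encodes the autophagy receptor p62, had 812, 612 and 1199 CPM in WT p210 libraries, against 254, 273, 295 and 235 CPM in WT untransformed libraries (log2 fold change 1.73 ± 0.26, adjusted p = 0.00039). Cd63 had 387, 519 and 434 CPM in WT p210 libraries, against 208, 197, 236 and 234 CPM in WT untransformed libraries (1.03 ± 0.11, adjusted p = 3.86e-05). Mcoln1, the calcium channel of the lysosomal membrane, had 54.6, 56.0 and 64.2 CPM in WT p210 libraries, against 38.4, 37.8, 32.5 and 34.4 CPM in WT untransformed libraries (0.70 ± 0.10, adjusted p = 0.00023). No p210 library of the 3 genes overlapped the untransformed range. Laptm5, for which all 3 WT p210 libraries (1234, 1221 and 1699 CPM) also lay above all 4 WT untransformed libraries (765, 779, 807 and 764 CPM), changed by 0.83 ± 0.13 (adjusted p = 0.00052).

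Among the cathepsins in WT cells, Ctsa had 433, 433 and 419 CPM with p210, above the untransformed range of 169 to 275 CPM (log2 fold change 0.88 ± 0.16, adjusted p = 0.0010). Ctsd had 1783, 1872 and 2328 CPM with p210, above the untransformed range of 435 to 663 CPM (1.87 ± 0.33, adjusted p = 0.0010). Ctsc, which activates the serine proteases of granules, had 263, 343 and 328 CPM with p210, against 167, 159.7, 132 and 157 CPM in untransformed cells (1.02 ± 0.20, adjusted p = 0.0019). The 3 genes thus did not overlap between groups. Ctsl also passed the threshold (3.38 ± 1.01, adjusted p = 0.020) but not without WT p210 replicate 3 (2.74, adjusted p = 0.070). For Ctss no difference was detectable, with 279.6, 57.4 and 141 CPM in WT p210 libraries and 24.4 to 325 CPM in WT untransformed libraries (-0.04 ± 0.81).

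Among the hydrolases in WT cells, Neu1 had 109, 205 and 136 CPM with p210, against 61.7, 50.3, 20.7 and 35.9 CPM in untransformed cells (log2 fold change 1.83 ± 0.32, adjusted p = 0.00095). Naglu had 57.2, 77.0 and 85.5 CPM with p210, above the untransformed range of 35.0 to 46.2 CPM (0.86 ± 0.17, adjusted p = 0.0017). Glb1, the beta-galactosidase, had 242, 534 and 445 CPM with p210, against 194, 195, 115 and 156 CPM in untransformed cells (1.30 ± 0.25, adjusted p = 0.0018). Gla (1.39), Gaa (0.81), Gusb (0.81), Man2b1 (0.78), Ppt1 (0.70) and Tpp1 (0.53) were also higher. Grn (1.25 ± 0.22), Atp6ap1 (0.83 ± 0.16), Atp6v0d1 (0.35 ± 0.09), Cd68 (1.81 ± 0.51) and Lamp1 (0.49 ± 0.17) were higher in their classes. Mitf had 30.8, 25.7 and 88.1 CPM in WT p210 libraries, against 17.2, 15.0, 16.3 and 12.9 CPM in WT untransformed libraries (1.65 ± 0.40, adjusted p = 0.0074), with replicate 3 far above the other 2. Tfe3 changed by 0.41 ± 0.09 (adjusted p = 0.0042), and Tfeb had a fold change of -0.18 ± 0.26 (adjusted p = 0.62).

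With the line as a replicate block, 15 genes were higher and 1 lower in WT cells. Ctsl (adjusted p = 0.28), Gaa (0.089), Man2b1 (0.11), Naglu (0.051), Ppt1 (0.071), Lamp1 (0.093), Cd68 (0.093), Atp6v0d1 (0.051) and Mitf (0.061) then missed the threshold, and Arsb, which encodes arylsulfatase B, was lower (-1.53, adjusted p = 0.013). Whichever library was left out, 18 of the 24 genes were called. Lamp1 was lost without any 1 of the 3 WT p210 libraries or of WT untransformed replicates 2, 3 and 4 (adjusted p up to 0.11), Ppt1 without WT p210 replicate 2 or WT untransformed replicate 3 or 4 (up to 0.14), and Gaa without WT p210 replicate 2 or 3 or WT untransformed replicate 4 (up to 0.11). Man2b1 was lost without WT p210 replicate 2 or 3 (up to 0.060), Cd68 without WT p210 replicate 1 (0.085) and Ctsl without WT untransformed replicate 4 (0.053) or WT p210 replicate 3. Within either code alone 12 genes passed the threshold, with 11 higher and 1 lower in the first and 12 higher in the second. The second code holds a single WT p210 library, replicate 3. Its calls include Sgsh (3.04, adjusted p = 0.026), which had 49.6 CPM in that library, against 13.7 and 7.29 CPM in WT p210 replicates 1 and 2. Monocyte and macrophage markers summed to 2524 to 5083 CPM in WT p210 libraries and 333 to 3051 CPM in WT untransformed libraries. Of the 13 tested, 2 were higher and 0 lower by edgeR, and 9 had positive fold changes (median 0.92). Neutrophil granule markers summed to 1424 to 5165 CPM in WT p210 and 353 to 8507 CPM in WT untransformed libraries. Of the 14 tested, 1 was higher and 2 lower by edgeR, and 10 had positive fold changes (median 0.72). Markers of mast cells and basophils summed to 5076 to 15171 CPM in WT p210 and 1638 to 7828 CPM in WT untransformed libraries. Of the 11 mast cell and basophil markers tested, 4 were higher and 4 lower with p210 by edgeR, with a median log2 fold change of -0.8. The part of all these cells in the lysosome result was not tested.

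In KO cells, p210 went with higher levels of 7 of the 43 genes and lower levels of 4, where 19.2% of all genes were higher and 18.0% lower, 37.2% in all. The median log2 fold change was -0.01 over the 43 genes and also -0.01 over all genes. In 8 genes every KO p210 library lay above every KO untransformed library and in 6 below, where 22.6% and 23.5% of all genes did so. With upper quartile scaling 5 were higher and 6 lower, and with total count scaling 4 and 6. The higher genes were Glb1, Gusb, Mcoln1, Cd63, Laptm5, Tfe3 and Sqstm1, and the lower ones Asah1, Ids, Arsb and Lamp2. With the line as a replicate block 3 were higher (Mcoln1, Cd63 and Sqstm1) and 2 lower (Ids and Arsb). Markers of mast cells and basophils summed to 7716 to 11592 CPM in KO p210 libraries and 2974 to 3319 CPM in KO untransformed libraries, without overlap. Single markers of this list went both ways. Of the 11 tested, 4 were higher and 0 lower by edgeR, 5 had positive fold changes, and the median was -1.23 on the log2 scale. Cpa3 averaged 6215 CPM in KO p210 and 1586 CPM in KO untransformed libraries, and Mcpt4 0.16 CPM in KO p210 and 16.7 CPM in KO untransformed libraries. Monocyte and macrophage markers summed to 5074 to 10352 CPM in KO p210 and 8917 to 14027 CPM in KO untransformed libraries. Of the 13 tested, 0 were higher and 2 lower by edgeR, and 2 had positive fold changes (median -1.37). Neutrophil granule markers summed to 2736 to 16372 CPM in KO p210 and 16045 to 20618 CPM in KO untransformed libraries. Of the 14 tested, 0 were higher and 2 lower by edgeR, but 10 had positive fold changes (median 0.61). Mpo averaged 975 CPM in KO p210 and 13005 CPM in KO untransformed libraries, and S100a9 1979.8 CPM in KO p210 and 293 CPM in KO untransformed libraries. The part of these cells in the lysosome values was not tested.

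Sqstm1 had 1835, 1145, 895 and 881 CPM in KO p210 libraries, against 357, 368 and 345 CPM in KO untransformed libraries (log2 fold change 1.74 ± 0.27, adjusted p = 0.00063). Cd63 had 521, 454, 492 and 560.5 CPM in KO p210 libraries, above the KO untransformed range of 324 to 349 CPM (0.59 ± 0.11, adjusted p = 0.0014). Mcoln1 had 67.1, 64.7, 55.0 and 66.8 CPM in KO p210 libraries, against 43.2, 47.3 and 38.9 CPM in KO untransformed libraries (0.56 ± 0.10, adjusted p = 0.0013). None of the 3 genes overlapped between groups. Glb1 had 455, 414, 543 and 627 CPM in KO p210 libraries, against 246, 249 and 263 CPM in KO untransformed libraries (1.01 ± 0.26, adjusted p = 0.0095). Arsb showed the opposite, with 8.99, 7.38, 50.0 and 15.9 CPM in KO p210 libraries, against 140.1, 170.1 and 138 CPM in KO untransformed libraries (-2.85 ± 0.76, adjusted p = 0.012). Ids had 20.9, 17.5, 11.2 and 11.1 CPM in KO p210 libraries, against 32.7, 40.8 and 32.3 CPM in KO untransformed libraries (-1.22 ± 0.36, adjusted p = 0.021). Lamp2 had 523, 532, 443 and 497 CPM in KO p210 libraries, against 581, 687 and 621 CPM in KO untransformed libraries (-0.34 ± 0.08, adjusted p = 0.0089). These 4 genes did not overlap between groups either.

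All 7 genes higher with p210 in KO cells were also among the 24 higher in WT cells, 29.2% of the WT list, from libraries that the 2 comparisons do not share. Of all genes tested, 73.2% of those higher in KO cells were also higher in WT cells, and these made up 64.4% of the genes higher in WT cells. Side by side, the log2 fold change of Sqstm1 was 1.74 in KO and 1.73 in WT cells, that of Mcoln1 0.56 in KO and 0.70 in WT cells, and that of Cd63 0.59 in KO and 1.03 in WT cells. For Ctsa it was -0.11 in KO and 0.88 in WT cells, for Grn 0.29 in KO and 1.25 in WT cells, and for Lamp1 -0.30 in KO and 0.49 in WT cells. Glb1, Arsb, Lamp2, Mcoln1, Cd63 and Sqstm1 were called in KO cells whichever library was left out. Gusb and Laptm5 were lost without any 1 of the 3 KO untransformed libraries or without KO p210 replicate 1, and Gusb also without KO p210 replicate 4 (adjusted p up to 0.11). Asah1 was lost without KO untransformed replicate 2 or KO p210 replicate 1 or 3 (up to 0.11), Ids without KO untransformed replicate 2 or KO p210 replicate 3 or 4 (up to 0.073), and Tfe3 without KO untransformed replicate 3 (0.051). Within the first code 4 genes were higher and 6 lower, and within the second, with 1 KO untransformed library, none passed the threshold by edgeR and 7 had an unadjusted p under 0.05. The count in KO cells was 7 without KO untransformed replicate 2, and 15 without KO p210 replicate 4, with 6 higher and 9 lower. That last library had the largest monocyte sum (10352 CPM) and neutrophil sum (16372 CPM) of its group, and the part of those cells was not tested. When the library labelled KO p210 replicate 2 was left out, 8 genes were higher and 4 lower.

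None of the 43 genes passed the threshold for the interaction of genotype and transformation in edgeR, where 0.0345% of all genes did. At an unadjusted p under 0.05 stood 20 of the 43, which is 46.5%, against 14.1% of all genes tested. The interaction was negative in 41 of the 43 and positive in 2 (4.65%), where 46.9% of all genes had a positive value. The median was -0.70 on the log2 scale, against -0.03 over all genes. The 20 genes at an unadjusted p under 0.05 all had a negative interaction. The WT untransformed libraries enter this value too. DESeq2 called Ctsa (-0.99, adjusted p = 0.0034), Ctsl (-5.48, adjusted p = 0.0068) and Atp6ap1 (-0.80, adjusted p = 0.036), and limma-voom called none. The edgeR adjusted p of these 3 genes was 0.14, 0.17 and 0.21.

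The other pathway genes were compared between p210 and untransformed cells as well. In WT cells 67 of the 146 (45.9%) were higher and 11 lower, with a median log2 fold change of 0.45, where 21.9% of all genes were higher and 17.6% lower. In KO cells 42 (28.8%) were higher and 18 lower, with a median of 0.14, where 19.2% of all genes were higher and 18.0% lower. Autophagy genes had 11 of 20 higher and 2 lower in KO cells and 12 higher and 2 lower in WT cells, and the autophagy receptor Nbr1 changed by 0.63 ± 0.08 in KO and 0.64 ± 0.08 in WT cells. Sorting genes had 8 of 20 higher and 1 lower in KO cells and 10 higher and 1 lower in WT cells, with the adaptor Gga3 at 1.00 ± 0.11 in KO and 1.06 ± 0.10 in WT cells. Among other pump genes, 3 of 16 (18.8%, near the share of all genes) were higher in KO cells and 11 were higher and 1 lower in WT cells, with Atp6v0a1 at 1.64 ± 0.17 in KO and 1.87 ± 0.16 in WT cells. Cln3, the Batten disease gene, led the other membrane proteins at 1.22 ± 0.13 in KO and 1.65 ± 0.13 in WT cells. Of 24 mTORC1 regulators and other factors, 6 were higher and 5 lower in KO cells, and 6 were higher and 4 lower in WT cells, so that the share higher in each lay near that of all genes.

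CACGTG stood in windows of genes that passed the threshold and of genes that did not. Of the 13 genes with CACGTG in a window, 8 were higher in KO than in WT untransformed cells, against 14 of the 25 matched genes without it. Among all genes tested 8.73% were higher in that comparison. With p210 relative to untransformed cells, 2 of the 13 and 5 of the 25 were higher in KO cells, near the 19.2% of all genes. Lower in KO cells were 0 of the 13 and 3 of the 25, where 18.0% of all genes were lower. In WT cells 10 of the 13 and 14 of the 25 were higher with p210 and 0 were lower, where 21.9% of all genes were higher. Of the 43 genes, 8 passed the threshold in none of the 4 comparisons: Ctsb, Ctsh, Ctss, Smpd1, Sgsh, Npc1, Atp6v1h and Tfeb. Ctsh, cathepsin H, was low, with 0.209, 0.463, 0 and 6.12 CPM in KO p210 libraries and at most 7.49 CPM in any library. Tfeb lay at 13.8 to 29.7 CPM in KO p210 and 13.7 to 18.1 CPM in WT p210 libraries.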

How the data were processed

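Per the labels' protocols, RNA was purified on columns and sequenced from one end with 50 bp reads after SENSE mRNA-Seq library preparation. The submitters' processing notes name Trimmomatic, STAR and featureCounts, and the build GRCm38. Their versions, other than that of featureCounts, are not given in the sources used here. Per the file headers, the authors made the deposited counts with featureCounts 1.5.1, reading strand as reversed, on the GENCODE M13 annotation. Antisense neighbours were therefore counted apart. TPM values, which the authors deposited in a further column of each file, matched a recomputation to within 0.049 and served for levels and shares, never for a test.

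Symbols for 50376 of 50686 genes came from GENCODE M21. The main test was the edgeR quasi-likelihood F-test (edgeR 4.0.16, R 4.3.3) with TMM scaling and robust dispersion. It was fitted once to all 14 libraries with a term for group, and filterByExpr (minimum count 10, minimum total 15) left 14512 genes, over which p-values were adjusted by the method of Benjamini and Hochberg. An adjusted p in the report is of this kind unless another tool or setting is named. The SE of a log2 fold change is its size divided by the root of F. Alternatives used DESeq2 1.42.0, limma 3.58.1, other scalings, filters, blocks and codes, and left out each library in turn. The test was tried on simulated counts first.

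The members and lists were chosen with earlier results of these data known. Members are named by class, with every library given for up to 3 members of a class and comparison, those called with the smallest adjusted p, and for members whose group levels are described. Deviations from group means correlated at 0.114 to 0.163 between untransformed and p210 libraries of the 3 WT lines and at 0.021 to 0.080 in the 3 KO lines. Between libraries of different groups that shared no line, the correlations ran from -0.213 to 0.265, a range that holds these values. Replicates differed by more than sampling noise (chi-square per gene of 15.3 or more), so none was treated as a repeat. Precision for rare transcripts is limited by the 20270348 to 50303271 counts of a library. Molecular identifiers were not used here.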

Additional observations from a re-analysis of the deposited data

Results flagged for a closer look

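In groups of 4 libraries, a library was set apart when its gap to the nearest other made up more than the share of the group's range that Dixon's test allows. Of the 88 gene and group pairs examined, 5 met this, and chance alone gives about 1 in 20. KO p210 replicate 4 stood high in 3 of them, with 2939.6 CPM of Ctsb against 770.4 to 972 CPM in the other KO p210 libraries, 432 CPM of Hexa against 272 to 285 CPM, and 6.12 CPM of Ctsh against 0 to 0.463 CPM. The same library had the highest monocyte and neutrophil sums of its group, 10352 and 16372 CPM, and their part was not tested. KO p210 replicate 3 stood low for the pump subunit Atp6v1h, with 85.6 CPM against 104 to 106 CPM. WT untransformed replicate 3 stood low for Lamp2, with 419 CPM against 459.8 to 466 CPM in the other WT untransformed libraries.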

How the results depend on the processing

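The number of lysosome genes called in KO against WT untransformed cells, 23 with all libraries, was 6 to 26 with each library left out, 7 within the first code, 0 within the second and 15 when 2 libraries that stood apart, WT untransformed replicate 3 by its mast cell sum and that labelled KO p210 replicate 2 by its Cdk6 level, were left out together. In KO against WT p210 cells, 1 gene was called, against 1 or 2 with each library left out, 2 with total count scaling, 2 in DESeq2, 2 within the first code, 0 within the second and 0 in a fit of these groups alone. In p210 against untransformed WT cells, 24 were called, and 12 within the first code and 12 within the second. In p210 against untransformed KO cells, 11 were called, against 7 to 15 with each library left out, 0 within the second code and 5 with the line as a replicate block. The interaction gave 0 by edgeR and 3 by DESeq2. Fits within 1 code hold fewer libraries, and the cause of the other shifts was not tested. Counts over all genes under these settings are not given here, so the shifts are not shown to be particular to lysosome genes. A replicate block of title numbers gave 24, 1, 25 and 9 calls in these 4 comparisons, and a block of code and letter 18, 1, 23 and 9. No call changed direction under any alternative run. Total count scaling shifted the median of all genes by -0.10 to -0.12 and left 41, 28, 37 and 18 of 43 fold changes positive, against 41, 34, 38 and 21 with TMM. Depth limits Ctsh, which had 11 to 191 counts in untransformed libraries.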
